A study of Mus musculus with 24 samples.

Results

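miR-192, miR-194 and miR-215 (assays mmu-miR-192, mmu-miR-194 and mmu-miR-215) are 3 microRNAs made from 2 pairs of neighbouring genes, and each was measured by 1 real-time PCR assay in mouse soleus. They are 3 of the 584 microRNA assays on the cards, taken by assay name on either card, and all 3 lay on card A. They were chosen by their level in MCK-PPARa soleus, which was higher than in its controls, so that difference is given below as a description and its calls as background. The soleus, a slow postural muscle of the calf, came from 12 male mice aged 12 weeks, in 4 groups of 3 animals. MCK-PPARa mice overexpress PPARα in muscle and were set against their non-transgenic littermates, NTGa. MCK-PPARb mice overexpress PPARβ in muscle and were set against their own non-transgenic littermates, NTGb. MCK stands for muscle creatine kinase, whose promoter is active in skeletal muscle and heart. The sources used here do not give the number of transgenic founders or the strain, and no PPAR transcript was on the cards.

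A microRNA is a short RNA cut from a hairpin transcript, and it lowers the output of messenger RNAs that pair with its seed, bases 2 to 8. miR-192, miR-194 and miR-215 are known as microRNAs of liver, gut and kidney epithelium, and in human cells the tumour suppressor p53 raises all of them. The nuclear receptors PPARα and PPARβ bind fatty acids and, once bound, raise the transcription of genes for burning them. The design asked how muscle microRNAs differ when either receptor is raised there.

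The mature sequences are shown because they set which assays could detect which gene. They come from the RefSeq table of GRCm38.p6, 5′ to 3′, with the seed in capitals, and the assay names without an arm were read as the 5p arm.
miR-192-5p: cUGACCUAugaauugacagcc
miR-215-5p: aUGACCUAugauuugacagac
miR-194-5p: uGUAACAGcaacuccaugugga
miR-192 and miR-215 share a seed, UGACCUA, that no other of the 1679 mature mouse microRNAs in the table holds. Over their 21 bases they are identical at 18 and differ by C1A, A12U and C20A, counted from the 5′ end with the base of miR-192 first. The probe sequences of the assays are not used here, and whether either assay also read the other microRNA was not tested. The seed of miR-194, GUAACAG, belongs to no other mature microRNA in the table. miR-194 itself is encoded in both gene pairs with the same 22 bases, so its assay cannot tell the Mir194-1 product from the Mir194-2 product.

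The hairpins show how each pair is built, with the mature 5p arm in capitals.
Mir194-1: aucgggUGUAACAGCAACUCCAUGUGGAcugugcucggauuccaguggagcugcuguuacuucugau
Mir215: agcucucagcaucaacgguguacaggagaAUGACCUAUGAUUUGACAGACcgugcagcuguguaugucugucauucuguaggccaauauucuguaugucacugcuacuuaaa
Mir194-2: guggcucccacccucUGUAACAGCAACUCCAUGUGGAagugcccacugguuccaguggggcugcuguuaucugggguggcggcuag
Mir192: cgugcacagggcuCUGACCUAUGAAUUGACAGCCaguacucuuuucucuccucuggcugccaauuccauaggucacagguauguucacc
Mir194-1 (chr1:185313319-185313385) and Mir215 (chr1:185313581-185313692) lie 195 bases apart on the plus strand of GRCm38.p6. Both fall within the span of Iars2 (chr1:185286642-185329419), which codes for the mitochondrial isoleucyl-tRNA synthetase and is read from the minus strand. The table does not say whether they lie in its exons or introns. Mir194-2 (chr19:6264643-6264728) and Mir192 (chr19:6264844-6264932) lie 115 bases apart, also on the plus strand. No other gene of the table spans this pair, and the nearest protein-coding genes are Atg2a, 2338 bases away on one side, and Ehd1, 11963 bases away on the other. In both pairs the miR-194 hairpin comes first.

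**Figure D1:**
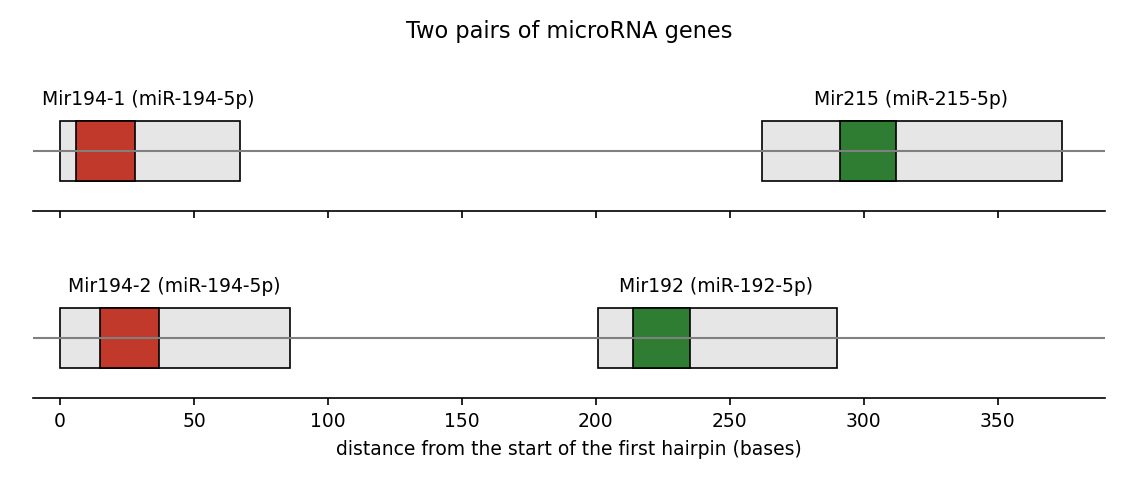
Map of the Mir194-1 and Mir215 pair (upper line) and the Mir194-2 and Mir192 pair (lower line), with the distance in bases from the start of the first hairpin on the x axis. Grey boxes are hairpins, red boxes the mature miR-194-5p and green boxes the mature miR-215-5p or miR-192-5p. The hairpins of a pair are 195 and 115 bases apart.

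The cycle threshold (Ct) counts the PCR cycles needed for the signal to appear, so it falls as template increases. Relative abundance, on the log2 scale, is the mean Ct of the 149 card A microRNAs detected in every animal minus the Ct of the microRNA, and a microRNA counts as detected under Ct 35. Of all 584 assays, 248 to 296 were detected per animal, and the mean Ct that served as reference on card A ran from 27.6 to 28.4. Among the muscle microRNAs, miR-206 and miR-1 were abundant in every animal, with miR-206 at Ct 18.0 to 18.9 and miR-1 at Ct 20.5 to 21.3. In whole muscle, a lower level in each cell and fewer cells holding a microRNA cannot be told apart.

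miR-192 was detected in all 12 animals and stood highest in MCK-PPARa soleus. This microRNA is known for lowering Zeb2 in mouse kidney cells. Its relative abundance was 0.40, 0.02 and 0.29 in the MCK-PPARa animals, against -0.78, -0.84 and -0.72 in the NTGa animals. Every MCK-PPARa animal was above every NTGa animal, by a group difference of 1.01 on the log2 scale, or 2.02-fold (SE 0.22). In the other line it was -1.20, -0.80 and -0.57 in the MCK-PPARb animals, against -1.22, -1.66 and -1.50 in the NTGb animals. Here the lowest transgenic animal, MCK-PPARb replicate 1, lay just above the highest control, NTGb replicate 1.

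Over the 4 groups, miR-192 averaged 0.24 ± 0.194 in MCK-PPARa, -0.78 ± 0.058 in NTGa, -0.86 ± 0.317 in MCK-PPARb and -1.46 ± 0.221 in NTGb (log2, SD, n = 3 each). NTGa and MCK-PPARb overlapped, with a gap of 0.08, while the other neighbours in this order did not overlap. As a description with no test, the mean of miR-192 in NTGa was 1.60 times that in NTGb (log2 0.68). Of the 268 tested assays, 36 had a larger positive difference between the control groups, for which the middle 90% of assays lay between -1.29 and 1.04.

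miR-194 was also detected in all 12 animals. Its relative abundance was -0.70, -0.55 and -0.86 in the MCK-PPARa animals, against -2.17, -1.81 and -2.33 in the NTGa animals. The groups did not overlap, and they differed by 1.40 on the log2 scale, or 2.64-fold (SE 0.23). It was -1.03, -1.00 and -1.60 in the MCK-PPARb animals, against -1.83, -1.71 and -1.95 in the NTGb animals. MCK-PPARb replicate 3 was the lowest transgenic animal of that line and still lay above every NTGb animal.

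The 4 groups came in another order for miR-194 than for miR-192. It averaged -0.70 ± 0.156 in MCK-PPARa, -1.21 ± 0.339 in MCK-PPARb, -1.83 ± 0.120 in NTGb and -2.10 ± 0.265 in NTGa (log2, SD, n = 3 each). Both transgenic groups stood above both control groups. NTGa and NTGb overlapped, with means -0.28 apart. The mean of MCK-PPARa was 0.51 above that of MCK-PPARb, a description with no test, since the level in MCK-PPARa chose this microRNA. The miR-194 assay cannot separate the gene pairs, and whether those of miR-192 and miR-215 do so fully was not tested.

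miR-215, the partner of Mir194-1, was near the limit of the assay. It had Ct 32.1, 32.9 and 32.1 in the MCK-PPARa animals, against no Ct in any of the 3 NTGa animals. In the MCK-PPARb line there was a Ct of 34.7 and 35.3 in MCK-PPARb replicates 1 and 3 and none in replicate 2, against 33.9 in NTGb replicate 2 and none in the other NTGb animals. The microRNA was thus detected in 3 of 3 MCK-PPARa and 0 of 3 NTGa animals, and in 1 of 3 MCK-PPARb and 1 of 3 NTGb animals. Its relative abundance was -4.05, -4.95 and -4.22 in MCK-PPARa, where the lowest value that could be told apart on every card A was -6.56. Values at or under this floor were set to it, which applied to the 3 NTGa animals, to every MCK-PPARb animal and to NTGb replicates 1 and 3. NTGb replicate 2 was at -6.39. With this reference and floor, the mean of miR-215 was at least 4.46-fold higher in MCK-PPARa than in NTGa (log2 2.16). No size can be given for the MCK-PPARb line. The bound depended on the processing: its log2 value was 1.87 with the median as reference and 2.38 with U6 snRNA. miR-215 was measured in a single well per animal, in a range of Ct where paired wells of other assays on card B differed by more than 1 cycle in 38.5% of 278 pairs.

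**Figure D2:**
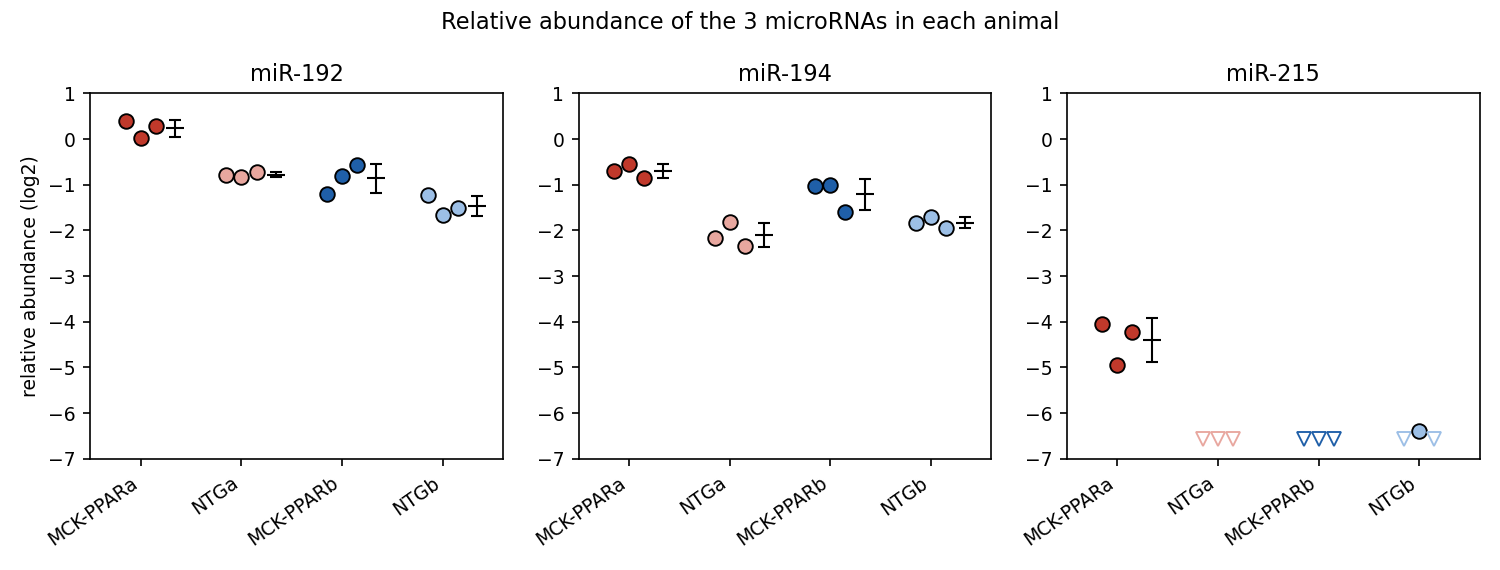
Relative abundance on the log2 scale (y axis) of miR-192, miR-194 and miR-215 in each of the 12 animals, by group. Filled circles are measured animals, open triangles are animals at the floor of -6.56, and bars give the mean ± SD of 3 animals where none was at the floor. All 3 microRNAs are highest in MCK-PPARa, and miR-192 is higher in NTGa than in NTGb.

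In MCK-PPARa against NTGa, 3 of the 3 microRNAs had groups that did not overlap, with the transgenic animals higher, as did 14.9% of all 268 tested assays. As background, limma with Benjamini-Hochberg adjustment called 6 assays in that contrast (2.24%), 3 of them higher (1.12%), and those 3 are the microRNAs chosen from it. The number called higher depended on the reference: it was 1 with U6 snRNA or with no scaling. These counts follow from how the 3 were picked and support nothing about them.

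The MCK-PPARb line was not used to pick the 3 microRNAs, although its values were known when they were picked. The limma SE also pools the spread of all 4 groups, including the animals that chose the 3. With only the 2 groups of this line it was 0.255 in place of 0.224 for miR-192, and 0.247 in place of 0.234 for miR-194. miR-192 was 1.52-fold higher in MCK-PPARb than in NTGb (log2 0.60, 95% interval 0.11 to 1.10, limma adjusted p = 0.49). miR-194 was 1.53-fold higher (log2 0.62, 95% interval 0.10 to 1.13, limma adjusted p = 0.49). Neither passed, and limma called 0% of all 268 assays in this line. miR-215 is left out of this reading. It was among the tested assays only through its detection in MCK-PPARa, and it stood at or near the floor in both groups of this line. At an unadjusted limma p under 0.05 there were 2 of the 3, miR-192 and miR-194, where all assays had 23 (8.58%), 14 of them higher (5.22%). The groups did not overlap, with MCK-PPARb higher, for the same 2 microRNAs and for 10.8% of all assays. Exact permutation tests, two-sided, gave p = 0.1 for each of the pair, the smallest that 3 animals against 3 allow. Of all assays, 29 had a larger positive difference than miR-192 and 26 than miR-194. These differences depended on the animals used as controls: against all 6 control animals the log2 value of miR-192 was 0.26 and that of miR-194 0.75.

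**Figure D3:**
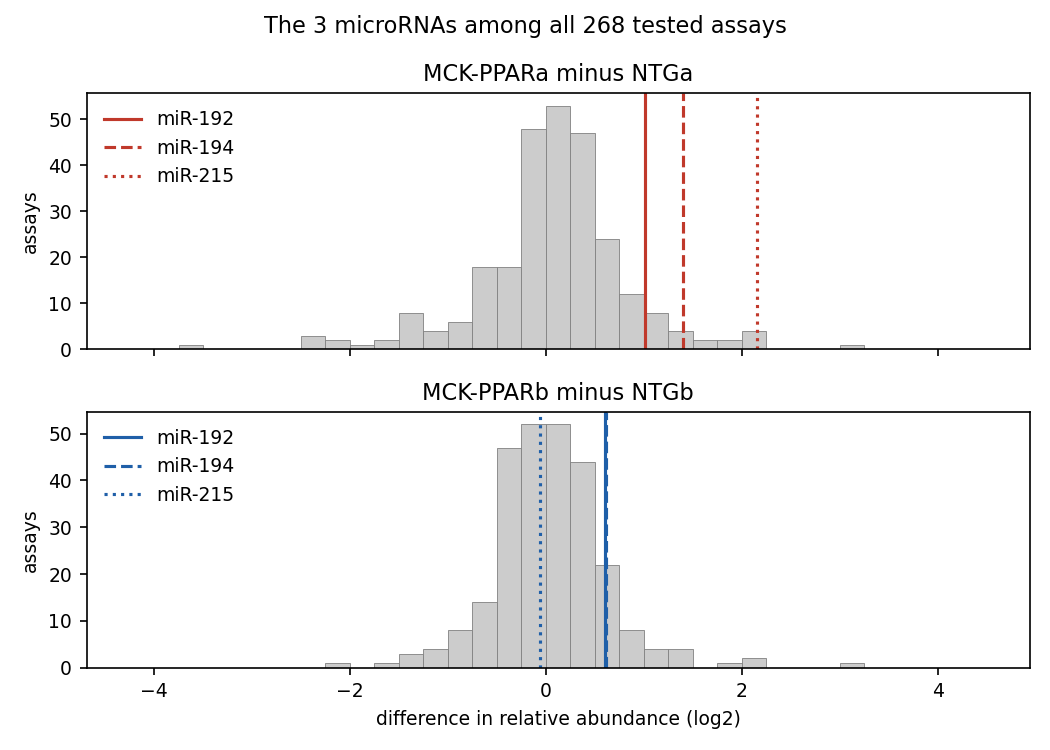
Histograms of the difference in relative abundance (x axis, log2) over the 268 tested assays (y axis, number of assays) for MCK-PPARa minus NTGa (upper) and MCK-PPARb minus NTGb (lower). Lines mark miR-192, miR-194 and miR-215, with undetected values at the floor. In the upper plot the lines stand at 1.01, 1.40 and 2.16, and in the lower plot at 0.60, 0.62 and -0.06, where miR-215 was at or near the floor in both groups.

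The ratio of miR-194 to miR-192 within an animal needs no scaling, since both were read on the same card. Efficiencies differ between assays, so the ratio is compared between animals only. On the log2 scale it was -1.10, -0.57 and -1.15 in the MCK-PPARa animals, against -1.39, -0.98 and -1.61 in the NTGa animals. The groups overlapped, and the mean was 0.39 higher in MCK-PPARa. It was 0.17, -0.20 and -1.03 in the MCK-PPARb animals, against -0.61, -0.05 and -0.45 in the NTGb animals. The means of this line, -0.36 ± 0.615 in MCK-PPARb and -0.37 ± 0.289 in NTGb (SD, n = 3 each), differed by 0.01, less than the spread between animals (exact permutation test, two-sided, p = 1).

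The gap in mean ratio between the lines, given with no test, was wider than either gap between genotypes. The mean was -1.13 ± 0.357 over the 6 animals of the MCK-PPARa line and -0.36 ± 0.430 over the 6 animals of the MCK-PPARb line (SD), a difference of -0.77. The ranges overlapped, from -1.61 to -0.57 in the MCK-PPARa line's mice and from -1.03 to 0.17 in the MCK-PPARb line's mice. Between the control groups, which did not overlap, NTGa minus NTGb was -0.96. The labels name no run or date, so line and PCR run cannot be told apart.

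The ratio of miR-215 to miR-194 is a description with no test, since the level in MCK-PPARa chose both. It uses the same Ct values of miR-215 as above. The miR-194 assay cannot tell the product of Mir194-1, the cluster partner of Mir215, from that of Mir194-2. The log2 ratio of miR-215 to miR-194 was -3.35, -4.40 and -3.36 in the MCK-PPARa animals. In the NTGa animals miR-215 was not detected, and taking it at Ct 35 gives ratios of at most -5.06, -5.52 and -4.75. Every MCK-PPARa animal was above every one of these bounds. In the MCK-PPARb line only 1 animal of each group had miR-215 under Ct 35. The ratio was -5.55 in MCK-PPARb replicate 1 and -4.68 in NTGb replicate 2. The bounds of the other animals were -5.98 and -5.26 in MCK-PPARb and -4.77 and -4.62 in NTGb. No difference between these groups can be read from these values. The ratio to miR-192, which shares the seed but lies on the other chromosome, was -4.45, -4.97 and -4.50 in the MCK-PPARa animals, against at most -6.36 in the NTGa animals. In the MCK-PPARb line this ratio was -4.73 in NTGb replicate 2, within the range of the MCK-PPARa animals, and -5.38 in MCK-PPARb replicate 1.

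**Figure D4:**
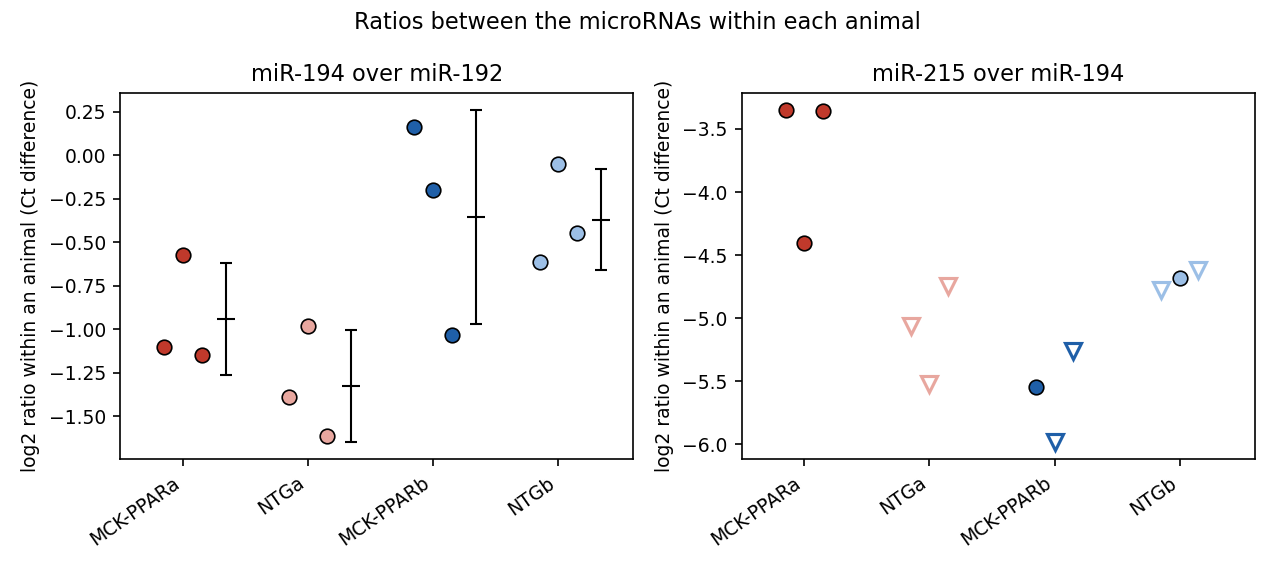
Log2 ratio within each of the 12 animals (y axis) of miR-194 to miR-192 (left) and of miR-215 to miR-194 (right), by group. Filled circles are measured ratios, open triangles are upper bounds with miR-215 taken at Ct 35, and bars give the mean ± SD of 3 animals. The ratio of miR-194 to miR-192 averages -1.13 in the MCK-PPARa line and -0.36 in the MCK-PPARb line.

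How far miR-192 and miR-194 went together across animals was taken from their correlation. Over the 6 animals of the MCK-PPARb line, Pearson's r was 0.45 (exact permutation p = 0.336) and Spearman's rho 0.66 (exact p = 0.175), with 1 relation tested. This r was 0.78 with U6 snRNA as reference (exact permutation p = 0.0639) and 0.19 with the median as reference (exact permutation p = 0.733). MCK-PPARb replicate 3 and NTGb replicate 2 were farthest from the median of miR-192. Without these 2 animals r was 0.77 over 4 animals (exact permutation p = 0.0833), the smallest p that 4 animals allow. Over all 12 animals r was 0.62 and rho 0.52, as a description that includes the MCK-PPARa animals, and all values share a card and its reference. For deviations of these scaled values from the group means over the 12 animals, r was -0.61 and rho -0.57, with no test. In Ct before scaling, miR-192 and miR-194 ranked the animals alike within NTGa and within NTGb, but not within MCK-PPARa or MCK-PPARb. The negative sign is therefore given for the scaled values only. In those values, of 206 other assays detected in every animal, 202 had a higher r of deviations with miR-194 than miR-192 had. For levels over the 12 animals, which include the MCK-PPARa animals that chose both, only 8 of the 206 had a higher r with miR-194 than miR-192 had. Likewise 15 had a higher r of levels with miR-192 than miR-194 had.

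**Figure D5:**
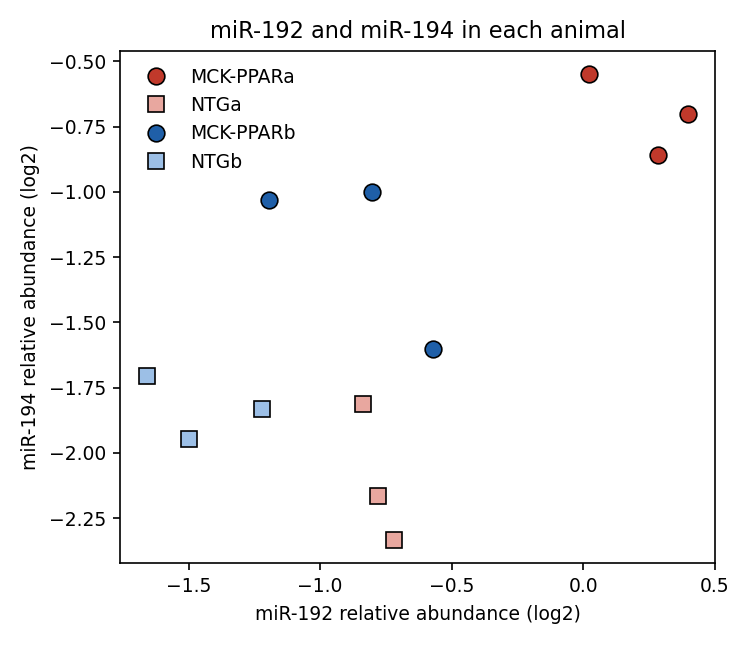
Relative abundance (log2) of miR-192 (x axis) and miR-194 (y axis) in each of the 12 animals. Circles are transgenic and squares non-transgenic mice. The 3 MCK-PPARa animals lie at the upper right, and NTGa lies to the right of NTGb at like levels of miR-194.

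Among the 206 other assays detected in every animal, those with the pattern most like miR-192 over the 12 animals were miR-203 (r = 0.81), miR-27a (0.78), miR-486 (0.75), miR-143 (0.75) and miR-93 (0.74). miR-203 is known from skin epithelium and miR-486 from muscle and red cells. For miR-194 they were miR-185 (0.79), let-7d (0.77), miR-339-5p (0.71), miR-322 (0.69) and miR-532-5p (0.65). No assay stood in both sets of 5. None of these 10 was called in MCK-PPARb against NTGb. There miR-185 was at log2 1.28, let-7d at 0.44, miR-339-5p at 0.66, miR-322 at 0.44 and miR-532-5p at 0.39, where miR-194 was at 0.62. Of those most like miR-192, which was at 0.60, miR-203 was at 0.09, miR-27a at 0.41, miR-486 at -0.28, miR-143 at 0.08 and miR-93 at -0.05. For deviations from group means, miR-486 (r = 0.67) and miR-93 (0.67) came first for miR-192, followed by miR-29c, miR-877 and rno-miR-489 (0.65 to 0.63). For miR-194 the first 5 were miR-503 (0.74), miR-10b (0.71), miR-188-5p (0.71), miR-15b (0.65) and miR-25 (0.63). miR-215 was detected in too few animals for such a comparison.

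The other arms of the 4 hairpins had no assay among those analysed. Of 10 further microRNAs linked to p53, such as the miR-34 family, 9 were on the cards and 8 were tested. None was called in either line. In MCK-PPARa against NTGa 7 of 8 had positive values, as did 58.6% of all 268 assays. Their median was 0.56 where all assays had 0.12, and they ran from miR-16 at -0.36 to miR-34b-3p at 1.27. Examples are miR-34a at log2 1.04 (limma adjusted p = 0.217) and miR-107 at 0.94 (0.463). miR-107 was detected in only 1 NTGa animal, with the others at the floor. In MCK-PPARb against NTGb 5 of 8 were positive, as were 51.1% of all assays, with a median of 0.05 where all assays had 0.02. There miR-34a stood at -0.66 (limma adjusted p = 0.559), miR-16 at -0.61 (0.609), miR-145 at 0.24 (0.816) and miR-15a at 0.30 (0.882).

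Most microRNAs of epithelia and other organs were at or below the limit in these muscles. Of 11 epithelial microRNAs 4 were tested and none was called in either line. In the MCK-PPARb line miR-200c was at log2 2.07 (SE 1.15, limma adjusted p = 0.559), miR-31 at 0.42, miR-203 at 0.09 and miR-182 at -0.09, with a median of 0.25. In MCK-PPARa against NTGa the median was 0.02, with miR-182 at 1.60 (limma adjusted p = 0.431). Of 11 microRNAs of liver, gut, kidney or pancreas 3 were tested, miR-204, miR-148a and miR-10b, again with no call, and 5 were detected in no animal. Their medians were -0.07 in MCK-PPARa against NTGa and 0.16 in MCK-PPARb against NTGb, where miR-10b was at 0.36, miR-204 at -0.17 and miR-148a at 0.16. miR-122, the main microRNA of liver, was detected in 1 animal, MCK-PPARb replicate 1 at Ct 34.8, and in none of MCK-PPARa or NTGa. In the MCK-PPARb line no tested microRNA of the p53, epithelial or organ lists had an unadjusted limma p under 0.05.

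Levels of markers of other cell types are given beside these results as sums of relative abundance on the linear scale. The 10 epithelial markers, of which miR-183 was detected in no animal, summed to 0.924 to 1.07 in MCK-PPARa against 0.850 to 2.13 in NTGa, and to 0.697 to 1.12 in MCK-PPARb against 0.625 to 0.854 in NTGb. The highest sums in NTGa come from replicates with a single Ct of 28.2 for miR-96 or 27.4 for miR-200a. Apart from these, the sums are mostly miR-203, the only 1 of the 10 detected in every animal. miR-203 averaged -0.14 in MCK-PPARa, -0.38 in NTGa, -0.56 in MCK-PPARb and -0.65 in NTGb (log2). The liver marker summed to 0 in every MCK-PPARa and NTGa animal. The 3 blood markers on the cards summed to 5.99 to 7.61 in MCK-PPARa against 4.41 to 5.87 in NTGa, without overlap, and to 5.27 to 5.83 in MCK-PPARb against 4.84 to 7.30 in NTGb. These sums are mostly miR-223, which averaged 2.41 in MCK-PPARa, 2.06 in NTGa, 2.10 in MCK-PPARb and 2.21 in NTGb (log2). miR-451, the main microRNA of red cells, averaged -0.63 in MCK-PPARa, -1.21 in NTGa, -1.09 in MCK-PPARb and -1.62 in NTGb (log2), the same order of groups as miR-192 but for NTGa and MCK-PPARb. The part of the blood markers in the values of miR-192, miR-194 and miR-215 was not tested. The endothelial markers miR-126-3p and miR-126-5p were at log2 0.27 and -0.85 in MCK-PPARa against NTGa and at -0.10 and -0.37 in MCK-PPARb against NTGb, with no call. Of the 7 muscle markers, 6 were detected in every animal. One of them, miR-499, which is known from slow fibres, fell by 3.66 on the log2 scale in MCK-PPARa against NTGa (limma adjusted p = 3.9e-05), and was at -0.08 in MCK-PPARb against NTGb. Of the 7, 3 were positive in MCK-PPARa against NTGa: miR-486 at 0.68, miR-206 at 0.36 and miR-133b at 0.13. Besides miR-499, the negative ones were miR-1 at -0.11, miR-133a at -0.08 and miR-208b at -1.31. miR-208b was at the floor in every MCK-PPARa animal, and none of these was called. The part of the muscle markers in the values of the 3 microRNAs was not tested.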

How the data were processed

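The authors deposited 1 Ct score per well, which per the file headers is not normalized; wells with no Ct are empty. RNAzol B was the extraction reagent and TaqMan assays ran for 40 cycles, per the labels' protocols. The sources used here name no software, threshold or baseline. Each of 12 RNAs was run on 2 cards, so the 24 samples are 12 animals, taken as separate animals since the labels call them biological replicates. All columns were matched by name, and 0 were unmatched.

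Wells of an assay were averaged, an empty well beside a called one counting as Ct 40. Values undetected at Ct 35, or under the floor, were set to 1 floor per card. An assay was tested if detected in all 3 animals of a group, which left 268. One mean per group was fitted in limma 3.58.1 (R 4.3.3), with the 12 animals in 1 model, and p-values were adjusted by Benjamini-Hochberg over the 268. The fit was run on simulated data with normal noise, no floor and changes only in assays detected in all 12 animals. That run does not test how undetected values were handled. Fold changes assume doubling in each cycle. Ratios and correlations used exact permutation tests in scipy 1.17.1. The alternatives covered the reference, detection limit, filter, weights, controls, a replicate block and leaving out each animal. Counting a lone empty well as Ct 40, and leaving it out as an alternative, were chosen after seeing the data.

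The 3 microRNAs, the lists and the tests were chosen with earlier results of these data known. Named in the text are these 3, list members called or of lowest p in the MCK-PPARb line (up to 4), and the 5 assays of highest Pearson r with miR-192 or miR-194. Examples for MCK-PPARa, the cell type markers and muscle microRNAs were picked afterwards, with values in view.

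Precision depended on Ct: in assays of card B with 2 wells, the wells differed by a median of 0.192 cycles between Ct 25 and 30, where miR-192 and most values of miR-194 lay, and by 0.755 between Ct 32 and 35.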

Additional observations from a re-analysis of the deposited data

How the results depend on the processing

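For miR-192 and miR-194 in MCK-PPARb against NTGb, the difference stayed positive and not called under every alternative run, with log2 values of 0.26 to 0.91 and 0.43 to 0.93 (adjusted p up to 0.666), and without any 1 animal of 0.45 to 0.78 and 0.51 to 0.81 (adjusted p up to 0.789). Scaling to U6 snRNA put them at 0.91 and 0.93, with the median of all assays in this contrast at 0.33 instead of 0.02. With no scaling that median was 0.15. Deviations of same-numbered animals correlated at 0.37, -0.02 and 0.22 in the MCK-PPARb line and at -0.19, 0.14 and -0.13 in the MCK-PPARa line. Animals of different numbers were not set beside them, so whether the replicate numbers pair the animals was not tested. With the replicate block, miR-192 had an adjusted p of 0.489 and miR-194 of 0.427, and no call on them changed. miR-215 in the MCK-PPARb line was at -0.06 and turned to 1.41 with no detection limit, where animals without a Ct stand at 40. Limma called 0 assays in this line, but 1 with animal weights and 0 to 1 without 1 animal (1 without MCK-PPARb replicate 3 or NTGb replicate 2). In MCK-PPARa against NTGa, miR-192 moved to 0.83 with U6 snRNA as reference, to 0.83 with no scaling and to 1.35 against all 6 control animals. miR-215 moved to 2.62 with no scaling and to 7.08 with no detection limit, where NTGa had no Ct. It was lower, at 1.87 with the median and 2.07 with the endogenous controls as reference, and at 1.98 to 2.42 without any 1 animal. Calls in that contrast were 6, or 3 with undetected values missing and 12 without MCK-PPARb replicate 1. Calls of higher assays there were 3, or 1 with U6 snRNA as reference, no scaling or undetected values missing, 2 with the endogenous controls and 4 with the median as reference. The difference of the ratio of miR-194 to miR-192 in the MCK-PPARb line ran from -0.25 to 0.35 without 1 animal: -0.25, -0.06, -0.11 and -0.02 without MCK-PPARb replicate 1, MCK-PPARb replicate 2, NTGb replicate 1 and NTGb replicate 3. The correlation of miR-192 with miR-194 in that line was -0.66 for deviations from group means, and 0.78, 0.68, 0.55 and 0.19 with U6 snRNA, no scaling, the endogenous controls and the median as reference. The cause of these moves was not tested. No miR-215 value exists at a limit of Ct 32 or among assays detected in all 12 animals.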
